A study of Rattus norvegicus with 6 samples.

Results

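Voltage-gated sodium channels carry the inward current that starts and propagates the action potential of sensory neurons. The 9 channel genes described here are Scn1a, Scn2a, Scn3a, Scn8a, Scn9a, Scn10a and Scn11a, which encode pore-forming alpha subunits, and Scn2b and Scn4b, which encode auxiliary beta subunits. They were taken by gene symbol, and all 9 were found among the 29884 genes of the count table. RNA was sequenced from rat trigeminal ganglia, where the sensory neurons that serve the face have their somata.

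The 3 conduit libraries came from wild-type rats with a constricted infraorbital nerve that received SFM-Gel, a bioactive gel driven by light, in a nerve conduit (NGC). The 3 injury libraries came from wild-type rats with the same constriction (CCI-ION) and no such treatment. There was no uninjured group, so the levels below are all from constricted animals. The labels give each library a day of its own after injury, 17, 18 and 19 for the conduit libraries and 14, 15 and 16 for the injury libraries. Whether these are the true days of sampling is not known, and if they are, day and treatment cannot be told apart. Conduit library 1 and injury library 3 share batch 2, conduit libraries 2 and 3 form batch 3, and injury libraries 1 and 2 form batch 1. The labels do not say that each library is a separate animal, so p-values measure the spread between libraries, which may not be the spread between animals.

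An alpha subunit forms the whole ion pore and the voltage sensors, and beta subunits tune its gating and its place in the membrane. Nociceptors, the neurons that detect painful stimuli, are known for a pair of channels that resist tetrodotoxin, encoded by Scn10a and Scn11a. The other alpha subunits named here are blocked by tetrodotoxin. Scn9a sets the threshold of nociceptors, Scn8a and Scn1a are known from large myelinated neurons, and Scn3a is an embryonic form known to return in rat sensory neurons after axon injury.

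The libraries held 40172473 to 41903629 counts. Neuronal identity was clear in all of them, with all 15 pan-neuronal genes tested, Prph and Avil among them. Summed pan-neuronal levels were 8409.7, 9572 and 12611 CPM (counts scaled to a common library size, with TMM factors) in conduit libraries 1, 2 and 3, against 11519, 9358 and 10151 CPM in injury libraries 1, 2 and 3. Some libraries carried transcripts of neighbouring tissue. The 12 skeletal muscle genes summed to 9077 CPM in conduit library 2, 537.2 CPM in injury library 1 and 8.87 to 18.7 CPM in the others, and the 8 pituitary genes summed to 6144 CPM in injury library 1 and to 1.43 to 17.0 CPM in the others. The 10 genes of central nervous system glia summed to 1313, 153 and 212 CPM in conduit libraries 1, 2 and 3, against 686, 414 and 1165 CPM in injury libraries 1, 2 and 3, so both libraries of batch 2 were the highest of their groups. The part of these transcripts in the batch 2 values below was not tested. Results on the 9 channel genes that the muscle and pituitary libraries decide are given with and without them.

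None of the 9 channel genes passed the test between conduit and injury (edgeR quasi-likelihood test, Benjamini-Hochberg adjusted p under 0.05 over all 16478 genes tested). That test called 0.00607% of all genes, a single gene, so 0 of 9 does not set the channels apart from other genes. None of the 9 had an unadjusted p under 0.05 either, a level that 5.35% of all genes reached. DESeq2, which called 1.23% of the 17126 genes it gave an adjusted p, and limma-voom, which called 0.00607%, also called 0 of the 9. The median log2 fold change (conduit over injury) was -0.0047 over the 9 genes and 0.0017 over all genes tested, with 4 of the 9 and 8323 of 16478 above 0. In 2 of the 9, Scn10a and Scn11a, all conduit libraries lay below all injury libraries, a pattern that 4.22% of all genes showed in that direction and 9.63% in either direction.

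**Figure D1:**
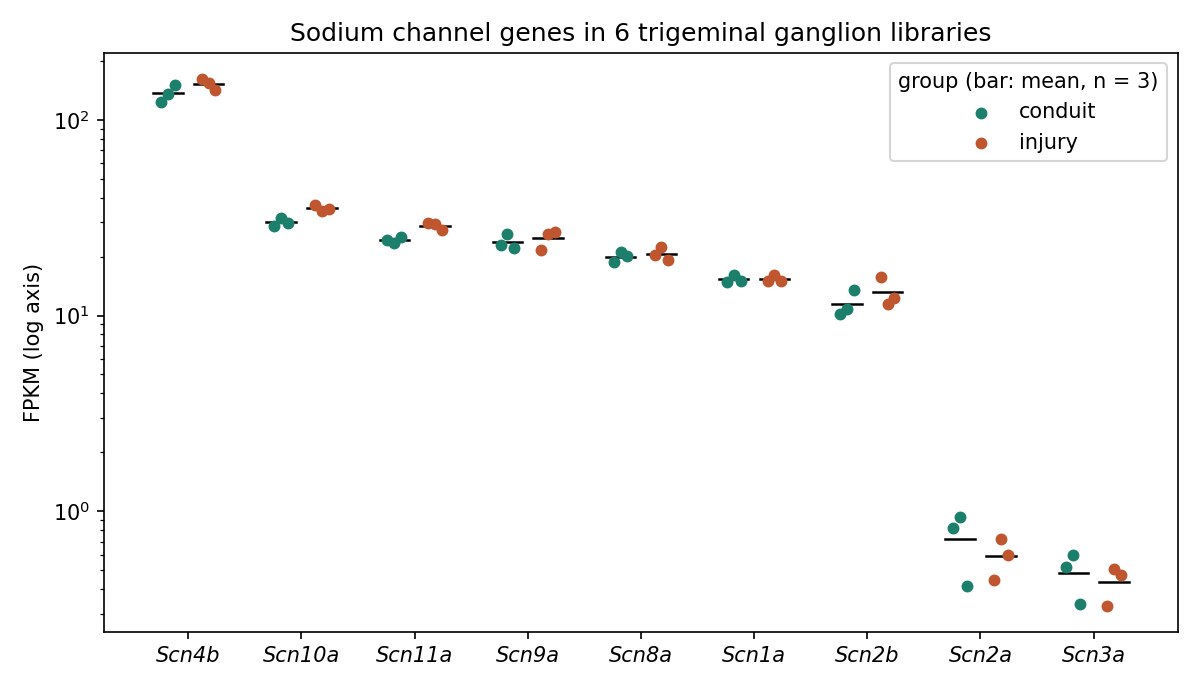
Level of the 9 channel genes in FPKM on a log axis, with 1 point per library and a bar at the group mean (n = 3 conduit, n = 3 injury). Scn4b stands highest at 123 to 161 FPKM and Scn2a and Scn3a lowest, all under 1 FPKM, and the groups separate on this scale only for Scn10a and Scn11a.

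Per kilobase of transcript, the deposited FPKM values spread the 9 genes over a wide range of levels. Scn4b, whose protein binds alpha subunits through a disulfide bond, averaged 144 FPKM over the 6 libraries, with a range of 123 to 161. The alpha subunits followed with Scn10a at 32.7 FPKM, Scn11a at 26.5, Scn9a at 24.3, Scn8a at 20.3 and Scn1a at 15.3. Scn10a exceeded Scn11a in 6 of 6 libraries, and Scn11a exceeded Scn9a in 5 of 6. Scn9a exceeded Scn8a, and Scn8a exceeded Scn1a, in 6 of 6 libraries. Scn2b, the other covalently linked beta subunit, averaged 12.3 FPKM and lay below Scn1a in 5 of 6 libraries, with overlapping ranges. Scn2a, best known from central neurons, averaged 0.658 FPKM and Scn3a 0.461 FPKM.

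Scn10a encodes the tetrodotoxin-resistant channel Nav1.8, which carries most of the current of the nociceptor action potential upstroke. It stood at 277, 318 and 307 CPM in conduit libraries 1, 2 and 3, against 368, 319 and 335 CPM in injury libraries 1, 2 and 3. The groups did not overlap, but conduit library 2 and injury library 2 nearly met. The log2 fold change was -0.18 (SE 0.10; 95% interval -0.41 to 0.05; edgeR adjusted p = 0.99981). Within batch 2, conduit library 1 lay lower than injury library 3 by a log2 difference of -0.27. Counts from bulk tissue cannot tell fewer cells of a type from less RNA per cell.

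Scn11a encodes Nav1.9, a tetrodotoxin-resistant channel whose persistent current sets the resting excitability of nociceptors. Its level was 172, 174 and 190.1 CPM in conduit libraries, against 217, 202 and 193 CPM in injury libraries. All 3 conduit libraries were lower, the highest of them by a small margin. The log2 fold change was -0.19 (SE 0.09; 95% interval -0.40 to 0.01; edgeR adjusted p = 0.97904) and -0.16 within batch 2. With any one library left out, the log2 fold change ranged from -0.23 to -0.11 for Scn10a and from -0.24 to -0.13 for Scn11a. Without injury library 1 and conduit library 2 together it was -0.15 for Scn10a and -0.11 for Scn11a.

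In the RefSeq annotation Scn10a and Scn11a lie close together on chromosome 8, with 1 further protein-coding gene, LOC108351811, between Scn10a and Scn11a and overlapping Scn10a. Neither the annotation of the counting nor its use of strand is stated, so how reads in that overlap were counted is not known. RefSeq promoter windows were found for 8 of the 9 genes. The 250 bases upstream of the annotated start are shown for Scn10a and Scn11a, because both genes had lower levels in every conduit library, and for Scn8a, a tetrodotoxin-sensitive channel of large neurons whose groups overlapped. The sequences are RefSeq's, on build GRCr8, a later build than the mRatBN7.2 of the counts. Capitals mark the letters GGGCGG (SP-type), CACCC (KLF-type), ATTAAT (POU-type) and TGACG (part of the CRE motif) on either strand, motifs chosen after the sequences were seen.
Scn10a, chr8:128340299-128340548, minus strand: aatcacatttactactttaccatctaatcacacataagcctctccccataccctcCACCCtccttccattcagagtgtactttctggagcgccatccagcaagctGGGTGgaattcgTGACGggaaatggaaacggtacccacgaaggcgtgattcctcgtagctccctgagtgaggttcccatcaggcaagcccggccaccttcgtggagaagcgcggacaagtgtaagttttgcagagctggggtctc
Scn11a, chr8:128444719-128444968, minus strand: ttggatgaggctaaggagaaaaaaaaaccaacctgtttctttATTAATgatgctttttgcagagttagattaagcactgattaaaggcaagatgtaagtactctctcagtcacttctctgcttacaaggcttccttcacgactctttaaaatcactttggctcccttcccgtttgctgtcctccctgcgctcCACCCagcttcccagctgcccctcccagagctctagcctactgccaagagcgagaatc
Scn8a, chr7:133860977-133861226, plus strand: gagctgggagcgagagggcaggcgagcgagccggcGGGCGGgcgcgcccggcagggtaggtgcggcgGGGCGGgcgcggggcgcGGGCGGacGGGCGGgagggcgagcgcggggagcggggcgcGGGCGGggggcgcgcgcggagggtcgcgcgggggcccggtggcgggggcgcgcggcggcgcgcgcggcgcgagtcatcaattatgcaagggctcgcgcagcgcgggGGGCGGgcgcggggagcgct

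The Scn10a window held CACCC at 2 places and TGACG at 1, and the Scn11a window held CACCC and ATTAAT at 1 place each. CACCC occurs in 49.2% of 33469 promoter windows of the same length, TGACG in 18.2% and ATTAAT in 4.71%. Overlapping matches were counted separately and no motif overlapped another in these windows. The Scn8a window held GGGCGG at 6 places, against 0 in the windows of Scn2a, Scn3a, Scn9a, Scn10a, Scn11a, Scn2b and Scn4b, and 30.5% of all windows hold it. Its GC content was 86.0% with 53 CpG pairs, against 53.2% and 11 for Scn10a and 46.4% and 4 for Scn11a. The median over all windows was 51.2% with 5 CpG pairs. A GC content at least that of Scn8a occurs in 0.0986% of all windows. The windows of other genes with overlapping groups held 52.4% GC (Scn9a), 39.6% (Scn2a), 41.6% (Scn3a), 38.8% (Scn2b) and 71.6% (Scn4b). A match is a description of letters and not a binding site.

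Scn9a encodes Nav1.7, which amplifies small depolarisations in nociceptors and whose loss abolishes pain in people. It was at 223, 262 and 231 CPM in conduit libraries, against 216, 245 and 257 CPM in injury libraries. The groups overlapped throughout. The log2 fold change was -0.0047 (SE 0.10; 95% interval -0.25 to 0.24; edgeR adjusted p = 0.99981), and within batch 2 it was -0.20.

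Scn8a encodes Nav1.6, the channel of mature nodes of Ranvier. Its level was 219, 254 and 250.2 CPM in conduit libraries, against 246, 251 and 222 CPM in injury libraries. Both groups spanned nearly the same range, with the batch 2 library lowest in each. The log2 fold change was 0.01 (SE 0.10; 95% interval -0.22 to 0.24; edgeR adjusted p = 0.99981).

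Scn1a encodes Nav1.1, known from large-diameter and mechanosensitive fibres. It had the narrowest spread of the 9 genes, at 132, 148 and 142 CPM in conduit libraries, against 137, 138 and 132 CPM in injury libraries. The difference between groups was smaller than the spread within conduit. The log2 fold change was 0.05 (SE 0.08; 95% interval -0.13 to 0.24; edgeR adjusted p = 0.99981). For Scn1a, Scn8a and Scn9a these intervals exclude a 1.5-fold change in either direction.

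Scn2a and Scn3a were the only channel genes here at a low level, and the most variable. Scn2a had 309, 351 and 160 counts in conduit libraries, against 168, 268 and 223 counts in injury libraries. Scn3a had 291, 334 and 194 counts in conduit libraries, against 185, 280 and 264 counts in injury libraries. For both genes conduit library 3 and injury library 1 were the lowest of their groups and conduit library 2 the highest. The log2 fold change was 0.35 for Scn2a (SE 0.32; 95% interval -0.41 to 1.11; edgeR adjusted p = 0.99981) and 0.21 for Scn3a (SE 0.26; 95% interval -0.40 to 0.81; edgeR adjusted p = 0.99981). Without injury library 1 and conduit library 2 together these values were -0.02 and -0.12, so the sign of both rests on those libraries. Of 8 markers of central neurons 5 could be tested, and the 8 summed to 8.33, 9.02 and 6.43 CPM in conduit libraries, against 4.50, 14.6 and 13.4 CPM in injury libraries. Gad2, Slc32a1 and Neurod6 had 0 to 9 counts in each library, and Chat had 0 counts in conduit library 1 and injury library 1. Their part in the Scn2a level was not tested.

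**Figure D2:**
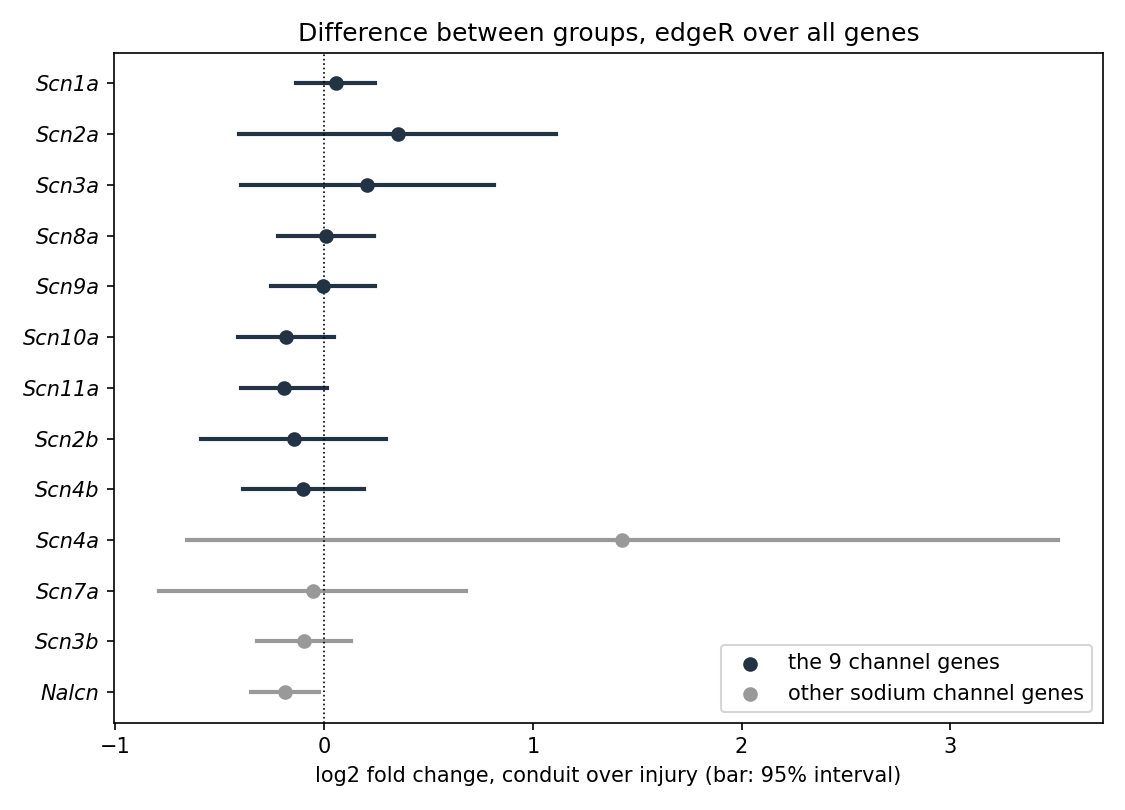
Log2 fold change of conduit over injury for the 9 channel genes (dark) and 4 other sodium channel genes (grey), with the 95% interval from the edgeR fit over all genes. All 9 dark intervals include 0, and the grey one of Nalcn does not, before adjustment for the number of genes tested.

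Scn4b encodes the beta subunit known to contribute to resurgent current in large neurons. It stood at 586, 671 and 761 CPM in conduit libraries, against 788, 705 and 669 CPM in injury libraries, with a log2 fold change of -0.10 (SE 0.12; edgeR adjusted p = 0.99981). Scn2b was at 45.7, 50.6 and 64.8 CPM in conduit libraries, against 73.5, 49.8 and 55.0 CPM in injury libraries, with a log2 fold change of -0.15 (SE 0.19; edgeR adjusted p = 0.99981). Both genes were highest in injury library 1 and, within conduit, in library 3. Without injury library 1 the Scn2b value was 0.05 and the Scn4b value -0.02, so the sign of the first turned. Scn2b and Scn4b are direct neighbours in the RefSeq annotation.

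Several channel genes shared a pattern across libraries that did not follow the groups. In conduit library 3 and injury library 1, Scn2b, Scn3b and Scn4b were above their own mean over the 6 libraries and Scn2a, Scn3a and Scn7a below it. Scn7a, an atypical sodium channel gene expressed in glia and some neurons, was at 635, 655 and 417 CPM in conduit libraries, against 346, 687 and 741 CPM in injury libraries. Gene length moved with the same libraries. Over all tested genes, the 2059 with more than 8000 bases had a median centred log2 CPM of -0.13 in conduit library 3 and -0.14 in injury library 1, against 0.05 to 0.09 in the other 4 libraries. The 2500 genes under 1500 bases stood at 0.12 and 0.13 in those libraries, against -0.14 to -0.03 in the others. The lengths implied by the deposited values were 13705 bases for Scn3a and 9190 for Scn2a, and 4570 for Scn2b and 4813 for Scn4b. The other 5 members did not all follow length. Scn8a, with 11797 bases, had centred values of 0.062 in conduit library 3 and 0.035 in injury library 1, both above its mean. Scn9a, with 9859 bases, lay below its mean in both, at -0.048 and -0.14. Scn10a (9807 bases) stood at -0.058 in conduit library 3 and 0.21 in injury library 1, Scn1a (8986 bases) at 0.042 and -0.014, and Scn11a (7213 bases) at -0.0051 and 0.19, so the signs of these genes differed between the libraries. The part of length in the channel levels was not tested.

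**Figure D3:**
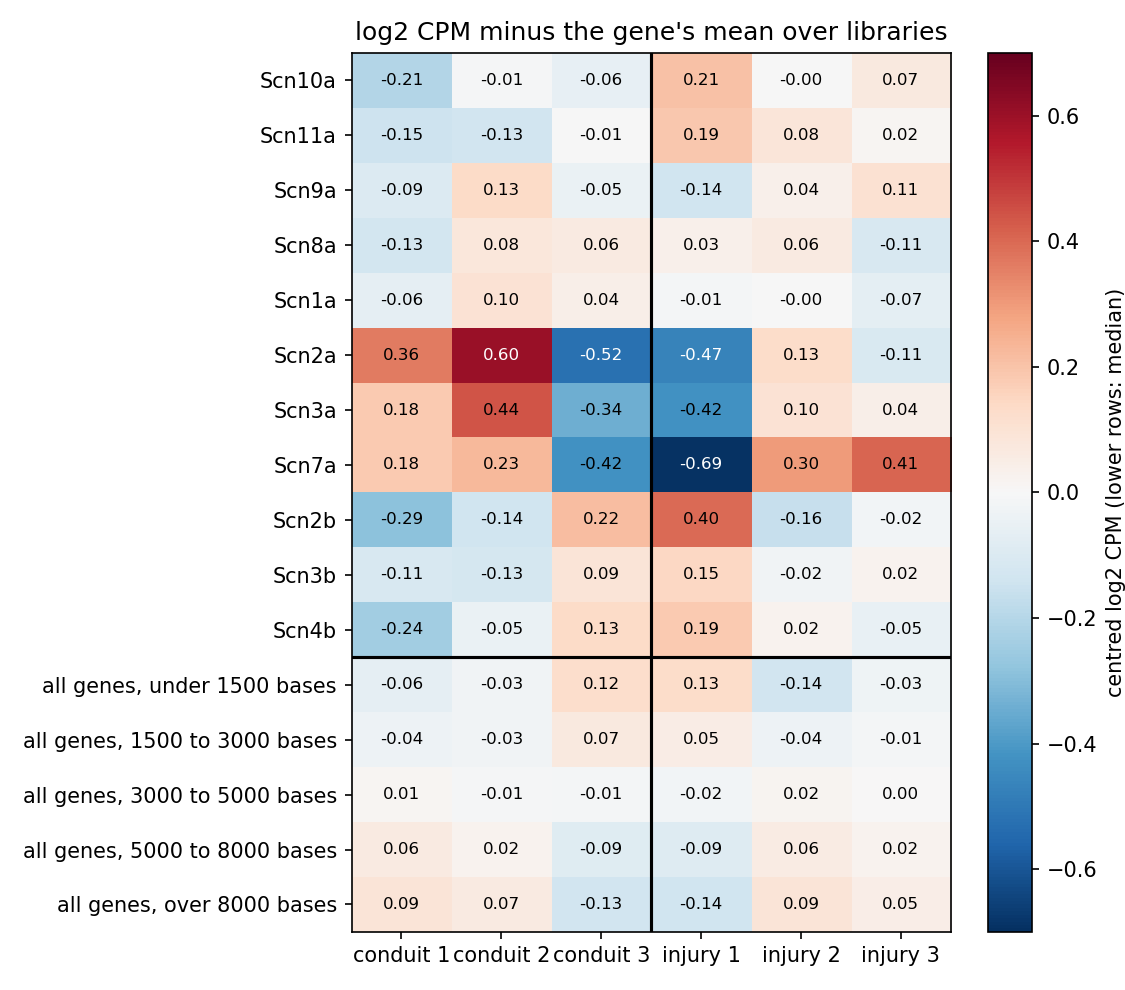
Centred log2 CPM (the value minus the gene's mean over the 6 libraries) of sodium channel genes, and below the line the median of all tested genes by length class. Conduit library 3 and injury library 1 show low Scn2a, Scn3a and Scn7a, high Scn2b and Scn4b, and low values for genes over 8000 bases (-0.13 and -0.14).

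The make-up of the alpha-subunit pool was compared next, because a share within a library does not depend on how libraries are scaled. Scn10a and Scn11a together held 47.6%, 46.1% and 48.5% of the FPKM of the 7 alpha subunits in conduit libraries, against 53.5%, 49.2% and 50.1% in injury libraries. All 3 conduit libraries had the smaller tetrodotoxin-resistant share. The mean was 47.4% ± 1.22 in conduit and 50.9% ± 2.29 in injury (SD, n = 3 each). An exact two-sided permutation test gave p = 0.1, the smallest that 3 libraries against 3 allow, and 0.15 adjusted over the 3 shares compared. Scn10a and Scn11a each separated the groups singly, and the test was chosen with earlier results known, so this p is not separate evidence. The difference of -3.54 percentage points became -2.24 without injury library 1 and -1.58 without injury library 1 and conduit library 2 together, and it was -2.48 within batch 2. The largest share of each group was in conduit library 3 (48.5%) and injury library 1 (53.5%), the libraries with low values for long genes. The part of gene length in the shares was not tested.

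Scn1a and Scn8a together held 30.4%, 31.0% and 31.1% in conduit libraries, against 28.5%, 29.7% and 27.5% in injury libraries. Here every conduit library had the larger share, and the difference of 2.27 percentage points was 2.89 within batch 2 and 1.75 to 2.84 with any one library left out (exact permutation p = 0.1, adjusted 0.15). It was 1.02 percentage points when Scn4a and Scn7a were added to the pool. Scn1a alone made up 13.4%, 13.4% and 13.3% of the pool in conduit libraries, against 12.0%, 12.5% and 12.1% in injury libraries. Scn9a held 20.7% ± 0.987 in conduit and 19.7% ± 2.10 in injury (SD, n = 3 each), with overlapping libraries. Scn3a held under 0.5% of the pool in every library, with means of 0.422% in conduit and 0.347% in injury (exact permutation p = 0.4, also after adjustment). The shares add up to a whole, so a smaller share of one gene is a larger share of others, and these comparisons are not independent.

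**Figure D4:**
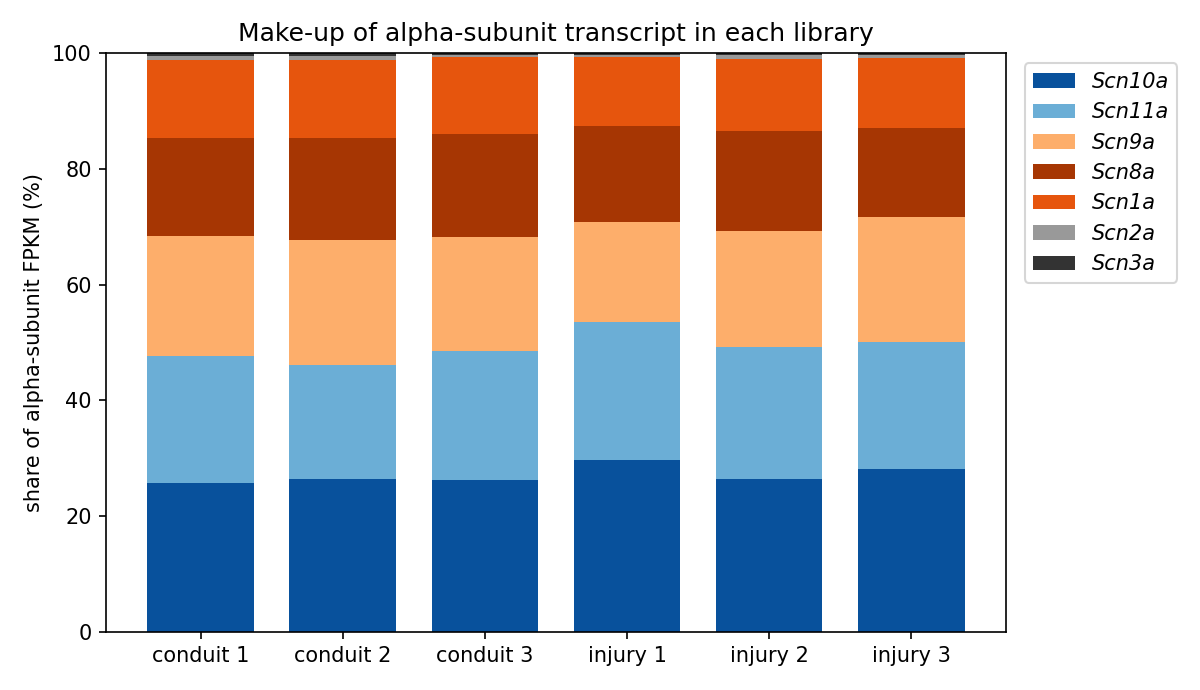
Share of each alpha subunit in the summed alpha-subunit FPKM, as 1 stacked bar per library. The blue segments, Scn10a and Scn11a, reach 46.1% to 48.5% in conduit libraries and 49.2% to 53.5% in injury libraries.

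The total of the pool depended on the scaling. The 7 alpha subunits summed to 111, 119.8 and 113 FPKM in conduit libraries, against 124, 129.6 and 124 FPKM in injury libraries, with no overlap. Divided by the TMM factor of each library, the sums were 109, 122 and 119 in conduit libraries, against 126, 123 and 121 in injury libraries, and the groups overlapped. No p is given for the sum over these genes. FPKM is relative to all counts of a library, and the 10 Schwann cell myelin genes summed to 43892 to 50304 CPM in conduit libraries, against 30002 to 36722 CPM in injury libraries. Of these 10 genes 8 had an unadjusted p under 0.05 with higher conduit levels. The 10 erythroid genes differed in the other direction, at 513 to 1275 CPM in conduit libraries, against 4469.6 to 5335 CPM in injury libraries, and all 10 had an unadjusted p under 0.05 with lower conduit levels. Over all genes 2.99% reached that level with higher and 2.36% with lower conduit values. None of either list passed after adjustment. The part of both in the sums was not tested.

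Neuron markers gave the context of the pool. Of 12 nociceptor genes (Calca, Trpv1 and P2rx3 among them) 10 had a log2 fold change below 0, with a median of -0.07, and none had an unadjusted p under 0.05. Of 12 large-fibre genes (Nefh, Ntrk3 and Kcna1 among them) 10 had a value above 0, with a median of 0.04. Again none had an unadjusted p under 0.05. The largest was that of Pvalb, 1.33, at 80.7, 410 and 118 CPM in conduit libraries, against 100, 68.4 and 74.1 CPM in injury libraries. Its high value fell on conduit library 2, which carried muscle transcripts. Neither list is given without that library. The large-fibre list summed to 17493, 18413 and 23363 CPM in conduit libraries, against 18582, 19777 and 17737 CPM in injury libraries. No gene of either list separated the groups, whereas 9.63% of all genes did in either direction. Over all 16478 genes tested, 8155 had a log2 fold change below 0 and 8323 above 0, and 5.35% had an unadjusted p under 0.05. The quartiles over all genes were -0.10 and 0.11, and both list medians lay between them, so neither list stands apart from other genes. P2rx3, the ATP receptor of nociceptors, was at 293, 308 and 352 CPM in conduit libraries, against 382, 346 and 323 CPM in injury libraries. The median log2 CPM of the 9 channel genes exceeded that of the pan-neuronal genes by 0.30, 0.09 and -0.01 in conduit libraries, against 0.24, 0.19 and 0.08 in injury libraries. When libraries were scaled by the summed pan-neuronal counts, the log2 fold change was -0.13 for Scn10a and -0.15 for Scn11a, with edgeR adjusted p = 0.99994 for both.

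Of 21 genes for proteins that anchor, modify or transport sodium channels, 0 passed the test and 0 had an unadjusted p under 0.05. Their median log2 fold change was -0.0059. Over all genes a single one passed and 5.35% had an unadjusted p under 0.05, so 0 of 21 does not set these genes apart. Nedd4l, a ubiquitin ligase that removes channels from the membrane, was at 97.8, 105 and 111 CPM in conduit libraries, against 127, 109 and 117 CPM in injury libraries. Tmem233, a membrane protein that binds Nav1.7, was at 64.5, 65.1 and 82.7 CPM in conduit libraries, against 99.3, 74.4 and 78.1 CPM in injury libraries. Nfasc, a cell adhesion molecule of the node, was at 419, 422 and 418 CPM in conduit libraries, against 384, 402 and 371 CPM in injury libraries. The groups separated for Nfasc alone of the 21, in the direction of higher conduit levels, as for 5.41% of all genes. Fgf12, an intracellular factor that binds the channel tail, had a log2 fold change of -0.08, Kif5b, a kinesin known to carry Nav1.8, 0.10, and Pdzd2, a scaffold reported to bind Nav1.8, 0.18.

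Among other sodium channel genes, Nalcn, which encodes a sodium leak channel, had conduit libraries wholly below injury libraries. It was at 59.6, 57.7 and 60.3 CPM in conduit libraries, against 66.9, 67.9 and 67.6 CPM in injury libraries (log2 fold change -0.19, SE 0.07; edgeR adjusted p = 0.86738). Its unadjusted p was 0.0288, under a level of 0.05 that 2.36% of all genes reached with lower conduit values, and it did not pass after adjustment. Scn4a, the skeletal muscle channel, was at 1.64, 15.4 and 1.96 CPM in conduit libraries, against 2.39, 2.65 and 2.02 CPM in injury libraries. Its high value fell on conduit library 2, the library with 9077 CPM of muscle genes. Scn3b, which encodes a beta subunit, and Scn7a had log2 fold changes of -0.10 and -0.06 and overlapping groups.

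The levels of Scn2a and Scn3a, the members with the widest range over the 6 libraries, were matched with all other tested genes by the root mean square difference of centred log2 CPM. Pecam1, an endothelial adhesion molecule, was nearest to Scn2a at 0.064, followed by Ptprb, a receptor phosphatase of endothelium, at 0.080 and Serpinb6b at 0.086. Nearest to Scn3a were Usp28, a deubiquitinase, at 0.047, Zbtb40 at 0.048 and Cpsf6, an mRNA cleavage factor subunit, at 0.057. These are likenesses over 6 libraries, chosen as the smallest among all genes of sufficient level, and are given as descriptions.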

How the data were processed

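Libraries of purified mRNA from 6 rat trigeminal ganglion samples were sequenced in pairs of reads. Build mRatBN7.2 and the tools HISAT2, HTSeq, fastp, SAMtools and DESeq2 come from the submitters' processing notes; no version, annotation or strand setting is stated. The counts are deposited unscaled, per gene symbol. The FPKM values deposited by the authors are those counts divided by gene length and library total: over 14394 genes the implied length agreed between libraries within 4.52e-06%, so they are no independent measurement.

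Groups came from sample titles. In R 4.3.3, edgeR 4.0.16 (filterByExpr with a minimum of 10 counts, TMM, robust quasi-likelihood F test, no covariate) tested 16478 genes; a gene with adjusted p under 0.05 was called. The common biological coefficient of variation was 0.295. Log2 CPM used a prior count of 2. Alternatives used limma 3.58.1, DESeq2 1.42.0, other scalings and filters, a pseudocount of 1 or 0.1 on FPKM, and libraries left out; the fits were tested on simulated data. Shares were compared with exact two-sided permutation tests (scipy 1.17.1). The channel genes, lists and tests were chosen with earlier results of these data known. All 9 members were named; from other lists, those with the smallest p or on which a result turns. Kcna1, Ntrk3, Calca and other genes only listed as examples were picked by role. Some genes are not reported here.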

Additional observations from a re-analysis of the deposited data

How the results depend on the processing

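None of the 9 channel genes was called under any of 19 alternatives with a test, where their adjusted p ranged from 0.647 to 0.99996. Scn10a, Scn11a and Scn4b had negative log2 fold changes under all 20 alternatives, from -0.28 to -0.11, -0.25 to -0.11 and -0.20 to -0.0089. All 20 re-use the same 6 libraries, so they are not separate evidence. For Scn10a and Scn11a the groups did not overlap, so leaving libraries out could hardly turn the sign. Values near 0 changed sign. Scn8a was -0.017 under upper quartile scaling, with batch as a term and in batch 2 alone, and -0.044 and -0.046 by limma on log2(FPKM + 1) and log2(FPKM + 0.1), where Scn1a was -0.0014 and -0.0015. Scn9a was 0.039 when scaled by pan-neuronal counts. With each library left out, Scn8a lay between -0.042 and 0.075, Scn9a between -0.069 and 0.050 and Scn2b between -0.31 and 0.045. Without injury library 1 and conduit library 2 together, an alternative added after seeing the data, Scn2a was -0.020, Scn3a -0.12 and Scn2b 0.087, the tetrodotoxin-resistant share differed by -1.58 percentage points, and 13 genes were called, all lower.

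The number of genes called over the whole table moved more. It was 1, lower, in the main test and 6 (1 higher, 5 lower) with no filter on low counts, 210 (112 higher, 98 lower) by DESeq2, and 7 (2 higher, 5 lower) and 3 (0 higher, 3 lower) by limma on FPKM with the larger and smaller pseudocount. It was 0 with a replicate block, and 0 to 38 (0 to 31 higher, 0 to 37 lower) without one library. The count with batch as a term is left out, because the group difference there rests on conduit library 1 and injury library 3 alone. The replicate numbers did not pair the samples: deviations of same-numbered libraries correlated at -0.42, 0.06 and -0.07. With the block, Scn10a was -0.18 and Scn11a -0.19.

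The summed alpha-subunit level differed by -0.14 on the log2 scale, and by -0.082 after division by the TMM factor, added after seeing the data. The Scn1a and Scn8a share differed by 1.02 percentage points with Scn4a and Scn7a in the denominator, a setting chosen after seeing the data in place of a planned wider one, which is not reported. Relative to pan-neuronal genes the median channel level differed by -0.04, by -0.24 against the nociceptor and large-fibre lists, by 0.22 in batch 2 alone, and by -0.13 to 0.03 with each library left out. The difference in tetrodotoxin-resistant share was -4.42 to -2.24 percentage points with each library left out. Depth limits Scn2a and Scn3a most, with 160 to 351 and 185 to 334 counts per library.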
